A study of Mus musculus with 6 samples.

Results

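The 9 genes described here encode the receptors, G protein, effector enzymes and desensitizing proteins through which noradrenaline and adrenaline act on the heart. They were taken by symbol from the 17556 genes of the expression table and comprise the receptors *Adrb1*, *Adra1a* and *Adra1b*, the G protein gene *Gnas*, the adenylyl cyclases *Adcy5* and *Adcy6*, the receptor kinase *Grk5* and the arrestins *Arrb1* and *Arrb2*. Bulk RNAseq covered the left ventricles of 3 Cre_pos and 3 Cre_neg mice taken on day 4 after injury (4 dpi). All 6 mice were 6 to 10 weeks old, carried floxed *Yap* (both alleles) and floxed *Wwtr1* (1 allele), underwent permanent ligation of the left anterior descending artery and then ate a tamoxifen citrate diet. Cre_pos mice carried in addition 1 copy of *Postn* MCM, a tamoxifen inducible MerCreMer driven by the endogenous periostin promoter and so active in myofibroblasts, whereas Cre_neg mice of the same families had wildtype *Postn*. No uninjured ventricle and no mouse without floxed alleles entered the comparison. Whole ventricle was homogenized, so fewer cells of a type and less RNA per cell cannot be told apart.

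Beta-adrenergic receptors on cardiomyocytes couple to the stimulatory G protein, which activates adenylyl cyclase. The cyclic AMP formed activates protein kinase A, which phosphorylates calcium channels, phospholamban and troponin I and makes the heart beat faster and harder. Receptor kinases phosphorylate the occupied receptor and arrestins then bind it, which ends G protein coupling, and this desensitization is a known feature of the injured and failing heart. The alpha 1 receptors respond to the same catecholamines through the Gq class of G proteins and phospholipase C, without adenylyl cyclase.

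Levels are given in TPM, a unit per transcript length and per library that can be compared between genes, and differences between genotypes come from counts scaled by TMM, edgeR's between-library normalization, as log2 fold changes of Cre_pos over Cre_neg. Libraries held 13177888 to 14827579 estimated counts, and the 9 genes together took between 0.193% and 0.215% of a library. Cre_neg replicate 1 stood apart. Its 8 cardiomyocyte markers summed to 73967 TPM against 62967 and 63250 in the other Cre_neg ventricles and 56031 to 60492 in Cre_pos, and its 8 fibroblast markers to 4953 TPM against 7571 to 8909 in the other 5 ventricles; this list includes *Postn*, the gene that carries the Cre in Cre_pos. No cardiomyocyte, fibroblast, macrophage or endothelial marker was at 0 in any ventricle, and all 8 cardiomyocyte markers had a log2 fold change below 0, with a median of -0.32, although none passed the test. Replicate 1 of Cre_pos held the most atrial marker RNA (16282 TPM against 6876 to 9692 in the other ventricles) and skeletal muscle marker RNA (101 TPM against 11.4 to 16.2), replicate 3 of Cre_pos the most lung marker RNA (66.8 TPM against 0.34 to 1.64), and the 4 Y-linked genes summed to under 1 TPM in replicate 2 of both groups and to 66.1 TPM or more in the other 4 ventricles, so the sexes were mixed in both groups. The targeted genes were at 44.2, 46.3 and 44.4 TPM for *Yap1* in Cre_neg and 50.7, 49.0 and 48.9 TPM in Cre_pos, and at 39.3 to 43.6 TPM and 43.9 to 47.4 TPM for *Wwtr1*. Neither was lower in whole ventricles labelled Cre_pos (edgeR adjusted p = 0.935 and 0.876). *Postn*, the gene in which the Cre_pos mice carry the MerCreMer, was at 452, 1015 and 1112 TPM in Cre_neg and 526, 636 and 586 TPM in Cre_pos (log2 fold change -0.66, SE 0.27, unadjusted p = 0.0438, edgeR adjusted p = 0.714), so that Cre_neg replicate 1 lay below all Cre_pos ventricles and the other Cre_neg ventricles above them.

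The data showed no member that changed between genotypes past the adjusted threshold. All 9 genes passed the filter on low counts, and 0 of 9 had an adjusted p under 0.05 in edgeR's quasi-likelihood test over 13817 genes, where 1 gene or 0.00724% of all genes tested passed (*Gbp2b*, named after its value was seen). At an unadjusted p under 0.05 there were 2 members, *Adra1b* and *Adra1a*, both lower in Cre_pos, beside 5.83% of all genes tested in either direction and 2.98% in the lower direction. This count of 2 was 0 without Cre_pos replicate 2, 1 without Cre_pos replicate 1 or without Cre_neg replicate 2, and 2 without any of the other ventricles. With limma on either TPM scale it was 1, since *Adra1a* was at an unadjusted p = 0.440 and 0.458 there. DESeq2's Wald test and limma on log2 TPM called 0 of the 9 as well. Of the 9 genes 8 had a log2 fold change below 0, their median was -0.21, and over all genes tested the median was 0.01 with 48.8% of genes below 0. That count of 8 was between 6 (without Cre_pos replicate 1) and 8 with a ventricle left out, and 5 with limma on either TPM scale. When libraries were scaled to their cardiomyocyte markers it was 2, but this scaling moved the median of all genes tested to 0.28, and the members' median minus that of all genes was -0.19, against -0.22 with TMM. With TMM and a ventricle left out this difference of medians ranged from -0.33 (without Cre_neg replicate 3) to -0.06 (without Cre_neg replicate 1), and it was -0.11 without Cre_pos replicate 2.

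**Figure D1:**
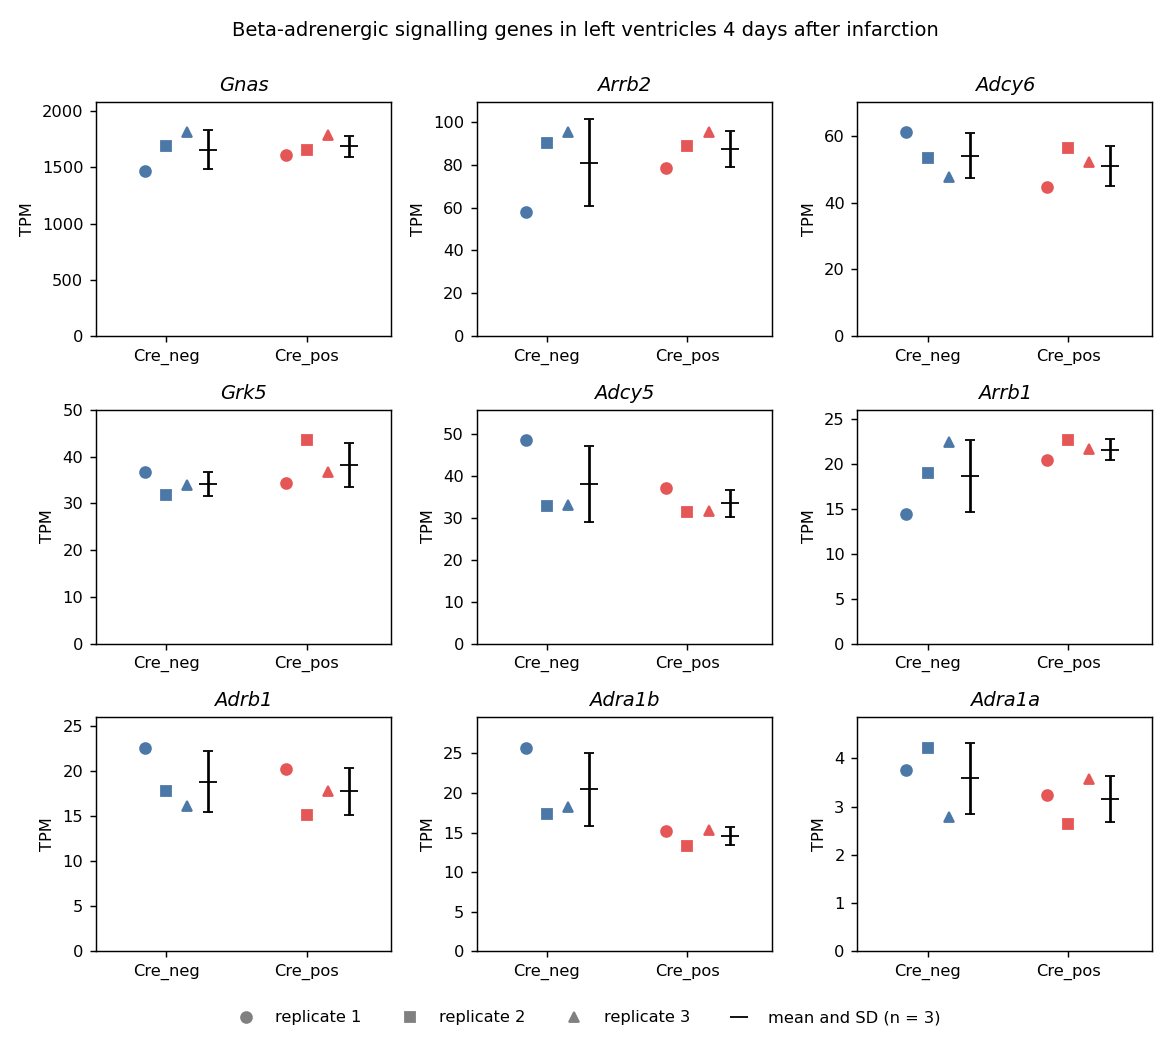
TPM of the 9 genes in each left ventricle at 4 dpi, one panel per gene with its own axis from 0. Points are ventricles, marked by replicate number, and the bar with whiskers is the mean and SD of 3 ventricles; only the *Adra1b* panel shows groups that do not overlap, and the first Cre_neg ventricle is highest in the *Adrb1*, *Adra1b*, *Adcy5* and *Adcy6* panels and lowest in the *Arrb1*, *Arrb2* and *Gnas* panels.

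*Gnas*, the gene of the stimulatory G protein alpha subunit, was by far the most abundant of the 9. It averaged 1670 TPM over the 6 ventricles and stood at rank 78 of all genes by mean TPM. Its lowest ventricle (1467 TPM) lay far above the highest value of the next gene, *Arrb2* (95.1 TPM). Below it the order of mean TPM was *Arrb2* (84.2), *Adcy6* (52.6), *Grk5* (36.2), *Adcy5* (35.8), *Arrb1* (20.1), *Adrb1* (18.3), *Adra1b* (17.5) and *Adra1a* (3.37). Levels of some neighbours overlapped: *Arrb1* was above *Adrb1* in 5 of 6 ventricles and *Adrb1* above *Adra1b* in 4 of 6. *Grk5* was above *Adcy5* in 3 of 6 ventricles, and *Arrb2* was above *Adcy6* in 5 of 6. The other steps (*Gnas* to *Arrb2*, *Adcy6* to *Grk5*, *Adcy5* to *Arrb1*, *Adra1b* to *Adra1a*) had the same order in 6 of 6 ventricles.

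With TMM and all 6 ventricles, the alpha 1 receptors had the lowest log2 fold changes of the 9. *Adcy5* lay below *Adra1a* without Cre_neg replicate 2 (-0.44 against -0.35) and with limma on log2(TPM + 1) (-0.16 against -0.14). *Adra1b* (gene number 11548), one of the alpha 1 receptors, spans chr11:43774605-43901250 on the minus strand in the RefSeq annotation of GRCm38.p6, the build in the submitters' processing notes. It measured 25.7, 17.4 and 18.2 TPM in Cre_neg replicates 1, 2 and 3 and 15.2, 13.3 and 15.4 TPM in Cre_pos. All 3 Cre_pos ventricles were below all 3 Cre_neg ventricles, and Cre_neg replicate 1 was much the highest. The same separation of the groups toward lower values in Cre_pos held for 946 genes, 6.85% of all genes tested, and for 1 of the 9 members. In normalized counts *Adra1b* was 535 ± 154 in Cre_neg and 349 ± 37.3 in Cre_pos (SD, n = 3), where counting error alone was 4.06% to 5.49% of a ventricle's count. Its log2 fold change was -0.61 (SE 0.20, 95% interval -1.08 to -0.15), a fold of 0.653, with an unadjusted p = 0.0155 and an adjusted p = 0.714 by edgeR. By p it stood at rank 175 of the genes tested. An exact two-sided permutation test of the 6 normalized counts gave p = 0.1, the smallest that 3 against 3 can give. Without Cre_neg replicate 1 the log2 fold change was -0.36, and over all ventricles left out in turn it lay between -0.74 and -0.36.

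*Adra1a* (gene number 11549, chr14:66635251-66771240), the other alpha 1 receptor among the 9, was the least abundant member. It had 275, 373 and 247 estimated counts in Cre_neg and 227, 206 and 250 in Cre_pos, so that Cre_neg replicate 3 lay below Cre_pos replicate 3 and the groups overlapped. Normalized counts were 310 ± 64.1 and 220 ± 27.4 (SD, n = 3), a log2 fold change of -0.49 (SE 0.18, 95% interval -0.91 to -0.08) with an unadjusted p = 0.0251 and an adjusted p = 0.714 by edgeR. On the TPM scale the groups lay closer, at 3.76, 4.22 and 2.78 TPM in Cre_neg and 3.25, 2.63 and 3.57 TPM in Cre_pos, a difference of mean log2 TPM of -0.18. TPM is not scaled by TMM. With limma on log2(TPM + 1) and log2(TPM + 0.1) the median of all genes tested was 0.11 and 0.12, against 0.01 with TMM. TPM also divides each count by a gene length estimated in each library. The parts of scaling and length in the gap between the 2 values were not tested. For *Adra1a*, with 13 RefSeq transcripts, the deposited counts and FPKM values imply lengths of 9752, 10941 and 10908 bases in Cre_neg and 8800, 9924 and 9074 bases in Cre_pos, a 1.24-fold range over ventricles. These implied lengths overlapped between groups (exact two-sided permutation p = 0.2, n = 3 per group). For *Adrb1*, with 1 transcript, the implied length ranged only from 2398 to 2406 bases, and among the other 8 members the widest range was 1.08-fold, for *Grk5*.

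*Adrb1* (gene number 11554, chr19:56722117-56725150 on the plus strand), the main beta receptor of cardiomyocytes, showed no separation of the genotypes. It measured 22.6, 17.8 and 16.2 TPM in Cre_neg and 20.3, 15.2 and 17.8 TPM in Cre_pos, with the first replicate highest in both groups. The log2 fold change was -0.21 (SE 0.20, 95% interval -0.68 to 0.26) with an edgeR adjusted p = 0.765, and the interval allows folds from 0.626 to 1.19. Without Cre_neg replicate 1 the log2 fold change was 0.00.

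To show the sequence next to the 2 receptors that bracket this range, the 250 bases before annotated starts are printed 5′ to 3′ on the gene's strand from RefSeq promoters of GRCm38.p6, which held windows for 5 of the 9 genes. *Adra1b* has windows at a distal start, chr11:43901238-43901487, and at a start within the gene, chr11:43836490-43836739, both on the minus strand. The *Adrb1* window is chr19:56721867-56722116 on the plus strand. Capitals mark matches to letters searched on both strands, TGANTCA (AP-1) and TGACG (the half-site of the cAMP response element).
Adra1b, distal start: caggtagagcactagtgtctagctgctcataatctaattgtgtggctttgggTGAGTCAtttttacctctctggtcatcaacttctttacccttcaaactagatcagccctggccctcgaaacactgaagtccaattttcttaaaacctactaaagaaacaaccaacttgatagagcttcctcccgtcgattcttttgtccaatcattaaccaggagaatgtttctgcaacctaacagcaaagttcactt
Adra1b, start within the gene: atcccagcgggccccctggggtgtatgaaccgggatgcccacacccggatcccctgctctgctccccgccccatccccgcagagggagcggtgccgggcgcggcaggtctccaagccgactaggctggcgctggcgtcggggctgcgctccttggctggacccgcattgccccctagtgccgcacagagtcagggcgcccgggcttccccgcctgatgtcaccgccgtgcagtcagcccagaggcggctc
Adrb1: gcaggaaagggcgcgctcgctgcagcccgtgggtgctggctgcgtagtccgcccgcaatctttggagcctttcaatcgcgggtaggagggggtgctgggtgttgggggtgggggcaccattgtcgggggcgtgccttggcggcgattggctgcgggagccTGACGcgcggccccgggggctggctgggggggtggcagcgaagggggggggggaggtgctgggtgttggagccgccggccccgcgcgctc
The capitals in the distal *Adra1b* window begin 198 bases before the start, and TGANTCA is found in 6.75% of the 32851 windows of the same length. Those in the *Adrb1* window begin 90 bases before the start, and TGACG is found in 17.8% of all windows. Of the 9 windows of members, 4 held TGACG (3 of them at *Gnas*, where overlapping windows share a match, and the other at *Adrb1*), 1 held TGANTCA and 0 held CATTCC, the core letters bound by TEAD proteins, the DNA-binding partners of Yap, which 12.6% of all windows hold. The letters were chosen after the windows had been read, a match is a description and not a binding site, and the absence of these letters says nothing beyond these windows.

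**Figure D2:**
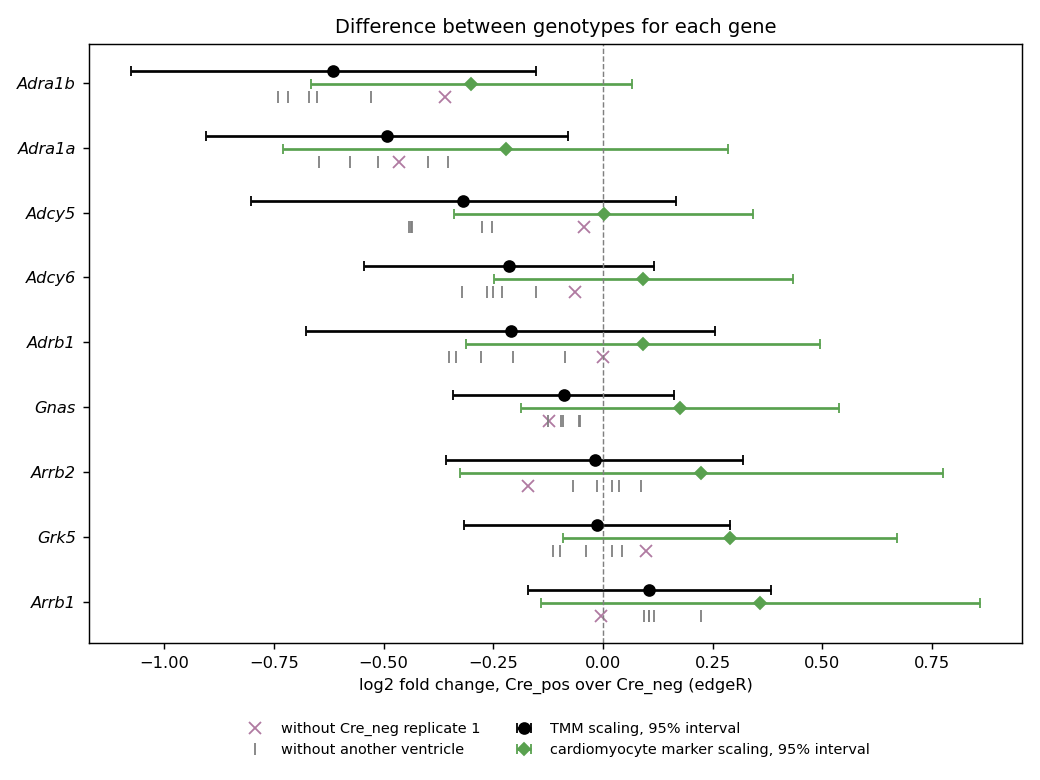
Log2 fold change of Cre_pos over Cre_neg for each gene, ordered from the lowest. Circles show TMM scaling and diamonds scaling to cardiomyocyte marker counts, both with 95% intervals, crosses the value without Cre_neg replicate 1 and ticks the values without each other ventricle; *Adra1b* is lowest in both scalings, at -0.61 and -0.30, and the intervals of *Adra1b* and *Adra1a* exclude 0 only with TMM scaling.

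Among all 9 adrenergic receptor genes, *Adrb1* and *Adra1b* together held most of the RNA. *Adrb1* made up 35.5% ± 1.3 of the summed TPM of these receptors in Cre_neg and 38.8% ± 2.4 in Cre_pos, and *Adra1b* 38.4% ± 4.3 and 32.1% ± 1.4 (SD, n = 3). *Adra1b* exceeded *Adrb1* in Cre_neg replicates 1 and 3 and lay below it in Cre_neg replicate 2 and in all 3 Cre_pos ventricles. Its share overlapped between groups, with 33.6% in Cre_neg replicate 2 and 33.7% in Cre_pos replicate 2 (exact two-sided permutation p = 0.2). *Adra1a* held 6.78% ± 1.2 and 6.88% ± 0.42, and *Adra1d* 7.80% ± 0.87 and 9.31% ± 2.58. The receptors summed to 64.0, 51.8 and 43.9 TPM in Cre_neg and to 49.1, 39.5 and 48.5 TPM in Cre_pos. Within a ventricle *Adra1b* was 5.84 ± 1.5 times *Adra1a* in Cre_neg and 4.68 ± 0.38 times in Cre_pos, a difference that did not pass an exact two-sided permutation test (p = 0.4, Benjamini-Hochberg adjusted p = 0.6 over 3 ratios, n = 3 per group). The difference of log2 ratios, Cre_pos minus Cre_neg, was -0.29 from TPM, -0.11 from TMM-scaled counts, which divide by no length, -0.16 without Cre_neg replicate 1, -0.19 without Cre_neg replicate 3 and -0.52 without Cre_neg replicate 2.

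**Figure D3:**
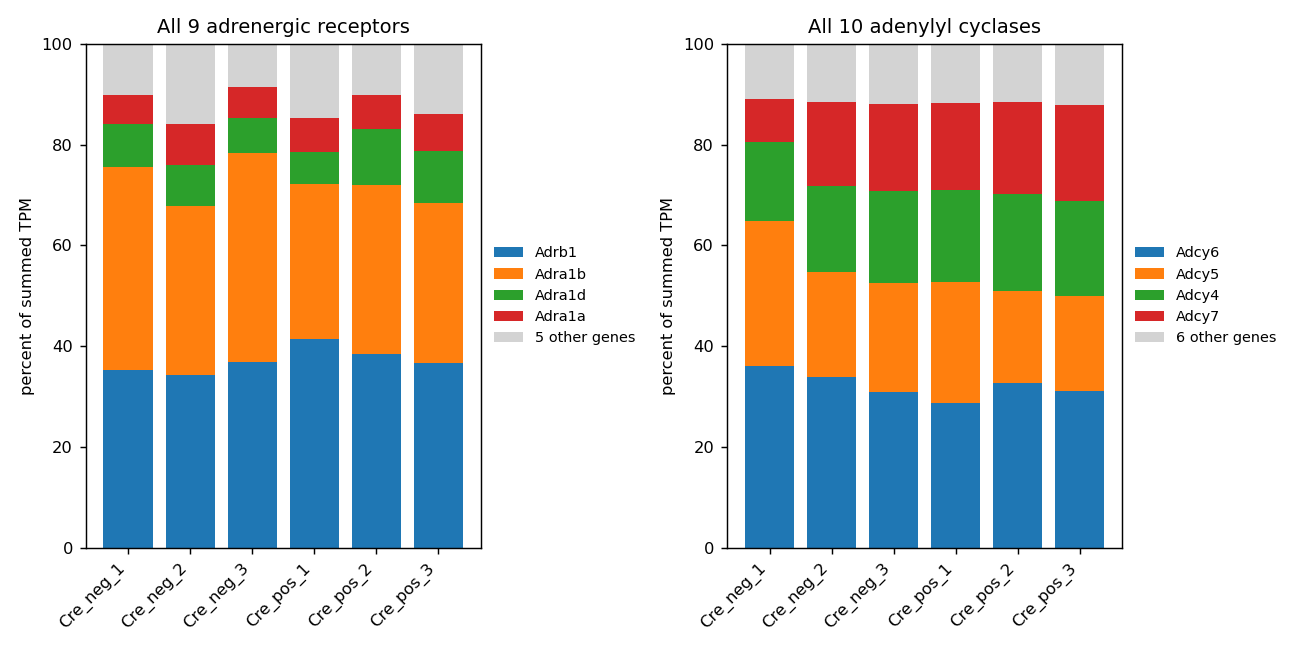
Share of each gene in the summed TPM of all 9 adrenergic receptor genes (left) and all 10 adenylyl cyclase genes (right), in percent, one bar per ventricle. The 4 most abundant genes of a family have their own colour and the rest are in grey; the *Adra1b* segment is between 33.6% and 41.5% in Cre_neg and between 30.9% and 33.7% in Cre_pos, and *Adcy6* and *Adcy5* together are highest in Cre_neg replicate 1.

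*Gnas* (gene number 14683, chr2:174284320-174346744), which carries the signal from the receptor to the cyclase, was the steadiest of the members. It measured 1467, 1687 and 1811 TPM in Cre_neg and 1614, 1656 and 1788 TPM in Cre_pos, all within the range of Cre_neg. The log2 fold change was -0.09 (SE 0.11, 95% interval -0.34 to 0.16) with an edgeR adjusted p = 0.810, and the interval allows folds from 0.789 to 1.12. With a ventricle left out the log2 fold change ranged from -0.13 to -0.05, the values nearest 0 being those without Cre_neg replicate 3 or Cre_pos replicate 2. Highest and lowest normalized counts differed by 1.18-fold, against 2.33-fold for *Adra1b*. *Gnas* has 23 RefSeq transcripts and overlaps the antisense gene *Gnasas1*. Whether the counting used strand is not given in the sources used here, so reads of these genes cannot be told apart.

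The cyclases *Adcy5* and *Adcy6* are the forms known to predominate in heart muscle, and here they had the highest mean TPM of the family. *Adcy6* (gene number 11512, chr15:98589978-98610287) measured 61.1, 53.4 and 47.8 TPM in Cre_neg and 44.6, 56.3 and 52.2 TPM in Cre_pos. *Adcy5* (gene number 224129, chr16:35154494-35305743) measured 48.6, 32.7 and 33.1 TPM in Cre_neg and 37.2, 31.5 and 31.6 TPM in Cre_pos. Both were highest in Cre_neg replicate 1, and the groups overlapped. The log2 fold change was -0.21 for *Adcy6* (SE 0.14, 95% interval -0.55 to 0.12) and -0.32 for *Adcy5* (SE 0.21, 95% interval -0.80 to 0.17), each with an edgeR adjusted p = 0.716. Without Cre_neg replicate 1 these were -0.06 and -0.04. *Adcy6* made up 33.7% ± 2.6 of the summed TPM of 10 cyclase genes in Cre_neg and 30.8% ± 2.0 in Cre_pos, and *Adcy5* 23.7% ± 4.4 and 20.4% ± 3.2 (SD, n = 3). Next came *Adcy4*, with 17.0% ± 1.3 and 18.8% ± 0.6, and *Adcy7*, with 14.2% ± 4.9 and 18.2% ± 0.8. The share of *Adcy7* was 8.53% in Cre_neg replicate 1, the lowest of all ventricles. The order below *Adcy6* was not the same in every ventricle, since *Adcy4* (33.5 TPM) was above *Adcy5* in Cre_pos replicate 2, and *Adcy4* (31.8 TPM) and *Adcy7* (31.97 TPM) were above it in Cre_pos replicate 3. The ratio of *Adcy6* to *Adcy5* was 1.44 ± 0.19 in Cre_neg and 1.55 ± 0.31 in Cre_pos (exact two-sided permutation p = 0.7, adjusted p = 0.7, n = 3 per group), and *Adcy6* was above *Adcy5* in all 6 ventricles.

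*Grk5*, the receptor kinase among the 9, and the arrestins, which act after the receptor is occupied, had log2 fold changes close to 0. *Grk5* (gene number 14773, chr19:60889560-61095968) measured 36.8, 31.8 and 33.9 TPM in Cre_neg and 34.4, 43.6 and 36.8 TPM in Cre_pos, with 1 Cre_pos ventricle above all others. Its log2 fold change from counts was -0.01 (SE 0.13, 95% interval -0.32 to 0.29; edgeR adjusted p = 0.981). *Grk5* overlaps *Zfp950*, which had 177 to 344 estimated counts, against 1080 to 1463 for *Grk5*, so a part of its reads may be shared.

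*Arrb1* (gene number 109689, chr7:99535147-99606772) measured 14.5, 19.0 and 22.5 TPM in Cre_neg and 20.4, 22.7 and 21.7 TPM in Cre_pos. *Arrb2* (gene number 216869, chr11:70432485-70440828) measured 57.8, 90.1 and 95.1 TPM in Cre_neg and 78.4, 88.5 and 95.1 TPM in Cre_pos. For both arrestins Cre_neg replicate 1 was the lowest ventricle, whereas it was the highest for *Adrb1*, *Adra1b*, *Adcy5* and *Adcy6*. *Arrb1* was the only member with a log2 fold change above 0, at 0.11 (SE 0.12, 95% interval -0.17 to 0.38; edgeR adjusted p = 0.797), and this was -0.0049 without Cre_neg replicate 1. For *Arrb2* it was -0.02 (SE 0.15, 95% interval -0.36 to 0.32; edgeR adjusted p = 0.976). *Arrb2* held 81.1% ± 1.3 of the summed TPM of both in Cre_neg and 80.1% ± 1.1 in Cre_pos. The ratio of *Arrb2* to *Arrb1* was 4.32 ± 0.38 and 4.04 ± 0.29 (exact two-sided permutation p = 0.4, adjusted p = 0.6, n = 3 per group), so it stayed between 3.84 and 4.74 while the sum of both ranged from 72.2 to 117.6 TPM.

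The ventricles at the ends of the range of cardiomyocyte marker RNA were also at the ends of the range for most members. Cre_neg replicate 1, with the most cardiomyocyte and the least fibroblast, macrophage and mural marker RNA, had the highest normalized count of 5 members (*Adrb1*, *Adra1b*, *Grk5*, *Adcy5* and *Adcy6*) and the lowest of 2 (*Arrb1* and *Arrb2*). Cre_pos replicate 2, with the least cardiomyocyte marker RNA, had the lowest of 5 (*Adrb1*, *Adra1a*, *Adra1b*, *Gnas* and *Adcy5*). How often these ventricles were highest or lowest over all genes tested was not counted. Cre_neg replicate 1 also differed most from the other ventricles over the whole table. Its mean chi-square per gene against another ventricle was 44.6 to 69.1, and among the other ventricles it was 8.15 to 17.3. Macrophage markers summed to 3060 TPM in Cre_neg replicate 1 and to 3986 to 4935 TPM in the other ventricles, mural markers to 428 TPM against 847 to 1083 TPM, and neutrophil markers to 423 TPM against 52.2 to 160 TPM. Sympathetic neuron markers summed to 2.83 to 4.28 TPM in all ventricles, and 1 of these 4 genes was at 0 in at least 1 ventricle. The part of cell content in the differences between genotypes was not tested.

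Counts were therefore also set against the summed counts of the 8 cardiomyocyte markers, a list that holds no member. *Adra1b* then had 0.782, 0.674 and 0.688 counts per 1000 marker counts in Cre_neg and 0.598, 0.551 and 0.592 in Cre_pos. The groups again did not overlap (exact two-sided permutation p = 0.1, the smallest possible). The share of all genes tested whose groups separate on this scale was not counted, and the 6.85% given above is for TMM-normalized counts. *Adrb1* had 0.526, 0.521 and 0.463 in Cre_neg and 0.612, 0.478 and 0.520 in Cre_pos, and *Adcy5* 2.34, 1.99 and 1.96 against 2.32, 2.06 and 1.91, and both overlapped. In an edgeR fit with this scaling the median of all genes tested moved from 0.01 to 0.28 and the median of the 9 from -0.21 to 0.09, and 7 of 9 members were above 0. *Adra1b* was at -0.30 (SE 0.16, 95% interval -0.67 to 0.07; edgeR adjusted p = 0.444), *Adra1a* at -0.22 (SE 0.23), *Adcy5* at 0.00, *Adrb1* and *Adcy6* at 0.09 each, and *Arrb1* highest at 0.36 (SE 0.22). Values of *Adrb1*, *Grk5*, *Arrb2*, *Gnas*, *Adcy5* and *Adcy6* crossed 0 under this scaling, which raised the values of all genes tested together.

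**Figure D4:**
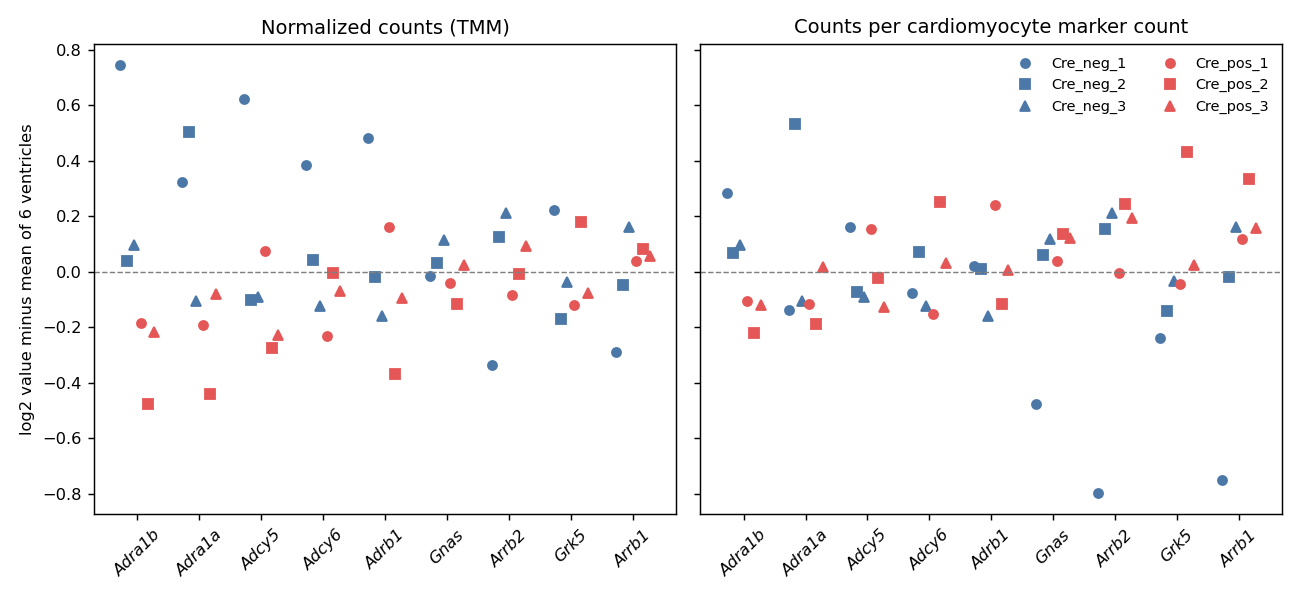
Deviation of each ventricle from the mean of all 6 on a log2 scale, for TMM-normalized counts (left) and counts per cardiomyocyte marker count (right), with genes ordered by log2 fold change. Blue is Cre_neg and red Cre_pos; the blue circle (Cre_neg replicate 1) is high for receptors and cyclases on the left and low for *Gnas*, *Grk5* and the arrestins on the right, and all red *Adra1b* points are below all blue ones in both panels.

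The genes around the members in the pathway were examined as 9 lists of 97 genes, of which 92 passed the filter on low counts. In edgeR's quasi-likelihood test 0 of 92 passed the adjusted threshold in either direction, 41 were above 0 and 51 below, and the median log2 fold change was -0.03. DESeq2's Wald test called 0 of them as well. At an unadjusted p under 0.05 there were 8 genes, 5 lower and 3 higher, beside the 5.83% of all genes tested. This count of 8 was 4 without Cre_pos replicate 2 and 6 to 10 without each of the others, and it was 11 with DESeq2's Wald test and 4 and 5 with limma on log2(TPM + 1) and log2(TPM + 0.1). Of these *Ddc*, *Rgs4*, *Pde4d* and *Pkig* were named by rule, and *Rgs2*, *Pde3b*, *Pde4b* and *Akap1* after their values were seen.

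Upstream of the receptors, the 7 tested genes of catecholamine synthesis, uptake and breakdown had a median log2 fold change of -0.25, and 1 had an unadjusted p under 0.05. All 7 lay below 0 with TMM scaling, but the mean TPM of some was higher in Cre_pos. That gene was *Ddc*, which makes dopamine from DOPA, at 2.46, 3.65 and 4.54 TPM in Cre_neg and 2.21, 2.47 and 2.0 TPM in Cre_pos (log2 fold change -0.78, SE 0.26, edgeR adjusted p = 0.714). Its counts were only 29 to 69 per ventricle, and its log2 fold change was -0.47 and -0.61 with limma on log2(TPM + 1) and log2(TPM + 0.1). Among the other adrenergic receptors 4 of 5 tested were below 0, with *Adra1d* most abundant at 4.20 and 4.19 TPM and *Adra2b* furthest from 0 at -0.98 (SE 0.47), on 4 to 18 counts per ventricle, and at -0.21 and -0.69 with limma on log2(TPM + 1) and log2(TPM + 0.1).

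Of 11 other G protein subunits 6 were above 0 and 5 below. *Gnai2*, an inhibitory alpha subunit, was the most abundant at 789 ± 122 and 851 ± 45.3 TPM with a log2 fold change of 0.00, and *Gnai3*, another inhibitory subunit, was furthest from 0 at 0.25 (SE 0.15), or 0.12 without Cre_neg replicate 1 and 0.39 without Cre_neg replicate 3. The other receptor kinases, arrestin-like and RGS proteins divided evenly, 6 above and 6 below 0. *Txnip*, the most abundant, varied from 158 to 369 TPM within Cre_neg alone, and its log2 fold change of -0.38 was -0.02 without Cre_neg replicate 2 and -0.59 without Cre_neg replicate 1. *Rgs4*, which speeds the shut-off of Gi and Gq proteins, measured 9.99, 13.2 and 14.4 TPM in Cre_neg and 15.4, 18.8 and 22.6 TPM in Cre_pos, a log2 fold change of 0.48 (SE 0.16, unadjusted p = 0.0156, edgeR adjusted p = 0.714).

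Among the other adenylyl cyclases 5 of 6 tested lay above 0 with a median of 0.21, while *Adcy5* and *Adcy6* lay below. *Adcy4* was at 27.1 ± 0.918 TPM in Cre_neg and 31.2 ± 2.70 TPM in Cre_pos (SD, n = 3). Its log2 fold change of 0.09 (SE 0.09) ranged from 0.05 to 0.15 with a ventricle left out. With limma on log2(TPM + 1) and log2(TPM + 0.1) it was 0.19 and 0.20. *Adcy2*, furthest from 0 at 0.40 (SE 0.59), had 2 to 22 counts per ventricle. Its log2 fold change was -0.07 without Cre_neg replicate 1, which held the 2 counts. The 15 phosphodiesterases, which degrade cyclic nucleotides, divided into 7 above and 8 below 0. Of the 3 with an unadjusted p under 0.05, 2 were higher in Cre_pos and 1 lower. The higher ones were *Pde3b*, at 0.43 (SE 0.13, unadjusted p = 0.0125), and *Pde4b*, at 0.32 (SE 0.10, unadjusted p = 0.0119), each with an edgeR adjusted p = 0.714. *Pde4d*, the family member known to associate with cardiac beta receptors, measured 8.85, 6.22 and 6.59 TPM in Cre_neg and 4.89, 5.57 and 6.32 TPM in Cre_pos (log2 fold change -0.47, SE 0.19, unadjusted p = 0.0385, edgeR adjusted p = 0.714), and its log2 fold change was -0.23 without Cre_neg replicate 1. *Pde2a*, the most abundant, stood at 46.0 ± 1.56 and 46.5 ± 2.63 TPM.

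Downstream, 9 of 17 genes of protein kinase A, its inhibitors, its anchors and Epac (*Rapgef3* and *Rapgef4*) lay above 0 and 8 below. *Prkar1a*, a regulatory subunit, was the most abundant at 469 ± 52.2 and 493 ± 51.0 TPM, with a log2 fold change of -0.04. *Pkig*, an inhibitor of the kinase, was furthest from 0 at -0.36 (SE 0.15, unadjusted p = 0.0482, edgeR adjusted p = 0.714) and at -0.20 without Cre_neg replicate 1. Of 12 substrates of excitation-contraction coupling and their regulators 10 lay below 0, with a median of -0.22. *Tnni3*, cardiac troponin I, was both the most abundant and the furthest from 0, at 5698 ± 866 TPM in Cre_neg and 4770 ± 516 TPM in Cre_pos (log2 fold change -0.39, SE 0.18, edgeR adjusted p = 0.714), and its log2 fold change was -0.19 without Cre_neg replicate 1. This list holds cardiomyocyte genes, and the cardiomyocyte markers had a median of -0.32. The part of cell content in these values was not tested. In the CREB family, the nuclear targets of cyclic AMP, 5 of 7 lay above 0, and the log2 fold changes ran only from -0.12 (*Crem*) to 0.08. *Atf1*, its most abundant gene, stood at 38.9 ± 1.47 and 41.6 ± 1.74 TPM.

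**Figure D5:**
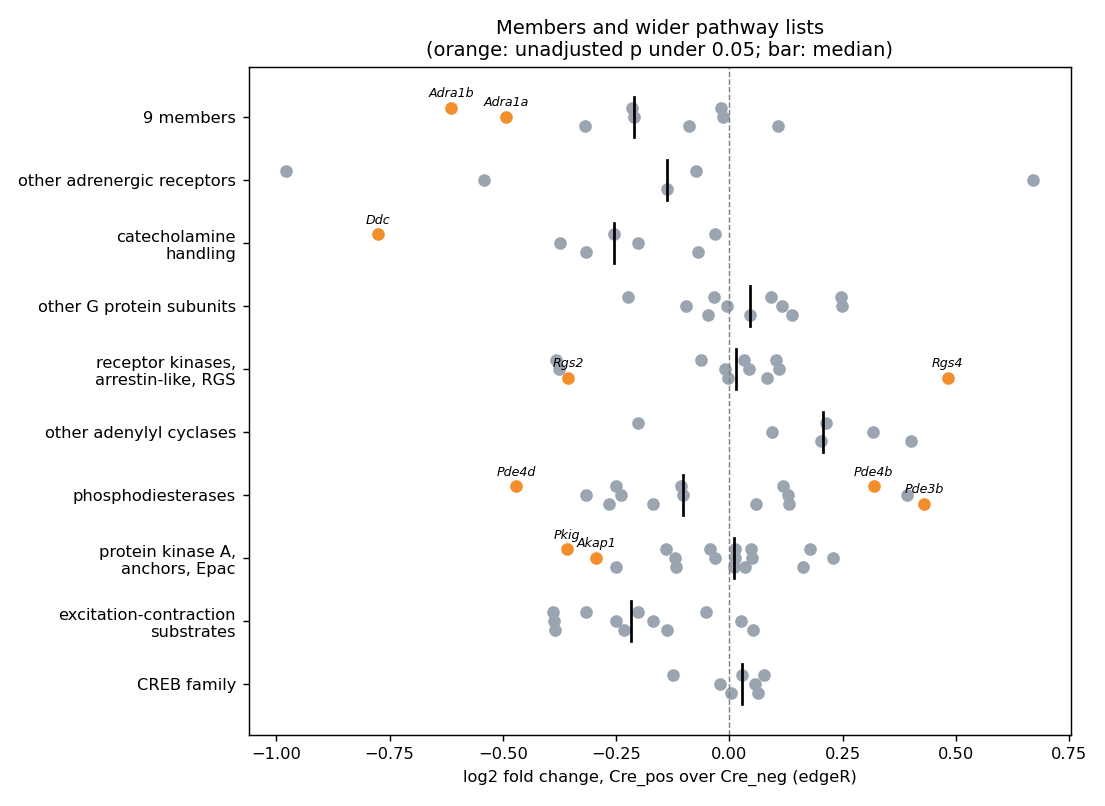
Log2 fold change of Cre_pos over Cre_neg for the 9 members and for the 92 tested genes of 9 wider lists, one row per list. Points are genes, orange where the unadjusted p is under 0.05, and the vertical bar is the median of the row. No gene passed the adjusted threshold. The members' median of -0.21 lies close to those of the excitation-contraction list at -0.22 and the catecholamine list at -0.25, and the list medians reach up to 0.21 (other adenylyl cyclases).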

How the data were processed

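Total RNA of 6 left ventricles was extracted with TRIzol and sequenced from libraries made by BGI Americas. The submitters' processing notes name Bowtie2 2.2.5, RSEM 1.2.12 and GRCm38.p6, with settings not given in the sources used here. The authors deposited estimated counts per gene without normalization, and 53 of the 54 counts of the 9 genes were whole. The authors also deposited TPM, used for levels, and FPKM, used only for implied lengths (count divided by FPKM and library total). A deposited comparison of the genotypes holds the authors' DESeq2 log2 fold changes, p-values and q-values, and none of its values was used.

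Rounded counts were fitted with edgeR 4.0.16 under R 4.3.3, using filterByExpr (minimum count 10, minimum total 15), TMM and the quasi-likelihood test with no covariate. Benjamini-Hochberg adjustment covered 13817 genes, with a threshold of 0.05. SEs and 95% intervals came from the F statistic, and normalized counts are at a library size of 14264187. Counting error is the square root of a count over the count and covers sampling of reads only. Single values were compared by exact two-sided permutation tests. Alternatives were DESeq2 1.42.0 and its size factors, limma 3.58.1 on log2(TPM + 1) and log2(TPM + 0.1), no filter, a mean of at least 50 counts, a threshold of 0.1, a replicate block, scaling to cardiomyocyte markers, and leaving out each ventricle. The test was also tested on simulated data. At the adjusted threshold it called 63 of 100 genes with a 2-fold change, 96 of 100 with a 4-fold change and 20 of 13617 unchanged genes.

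The members and lists were chosen with earlier results of these data known. The genes named are the 9 members and, in each wider list, the most abundant tested gene, the one furthest from 0 and any past the threshold, of which 1 is not reported here. A few other genes were named after their values were seen. The labels number the ventricles and name no batch, so p-values measure the spread between these ventricles. Figures were drawn with matplotlib 3.10.9 in Python 3.11.15.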

Additional observations from a re-analysis of the deposited data

How the results depend on the processing

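Of the 9 members, 0 passed the adjusted threshold under every alternative run, a threshold of 0.1 included, and 0 of the wider lists did under the same alternatives other than cardiomyocyte marker scaling, for which the lists were not counted. *Adra1b* and *Adra1a* kept a log2 fold change below 0 under each alternative, between -0.74 and -0.30 and between -0.65 and -0.14, with adjusted p from 0.444 to 0.958 and from 0.509 to 0.970. The genes called among all genes tested numbered 5 with DESeq2's Wald test, 2 with limma on either TPM scale and 0 to 2 with a ventricle left out. The labels give same-numbered ventricles no shared source, and Y-linked genes were low in replicate 2 of both groups. Deviations of same-numbered ventricles correlated at 0.342, 0.0583 and -0.0313, and Cre_pos replicate 2 correlated best with Cre_neg replicate 3. With the replicate block 0 genes passed, 1217 had an unadjusted p under 0.05, 13 of them in the wider lists and 3 among the members, and *Adra1b* was at -0.59 (edgeR adjusted p = 0.562).

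The median of the 9 was -0.078 with limma on log2(TPM + 1) and -0.082 on log2(TPM + 0.1), where the median of all genes was 0.11 and 0.12, and 0.093 with cardiomyocyte marker scaling. With limma on log2(TPM + 1) the values that turned to above 0 were *Grk5* 0.15, *Arrb2* 0.14, *Gnas* 0.031, *Adra1d* 0.0059, *Gnai2* 0.12, *Pde2a* 0.017, *Prkar1a* 0.073, *Crem* 0.064 and *Atf1* 0.095. On log2(TPM + 0.1) they were *Grk5* 0.16, *Arrb2* 0.14, *Gnas* 0.031, *Adra1d* 0.0094, *Gnai2* 0.12, *Pde2a* 0.017, *Prkar1a* 0.073, *Crem* 0.073 and *Atf1* 0.097. Scaled to cardiomyocyte markers they were *Adrb1* 0.092, *Grk5* 0.29, *Arrb2* 0.22, *Gnas* 0.18, *Adcy5* 0.0018 and *Adcy6* 0.093. The cause was not tested.

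With each ventricle left out in turn, the median of the 9 lay in the range -0.32 to -0.064. The ranges that crossed 0 were *Adrb1* -0.35 to 0.00012, *Grk5* -0.11 to 0.098, *Arrb1* -0.0049 to 0.22, *Arrb2* -0.17 to 0.087, *Adra1d* -0.36 to 0.15, *Gnai2* -0.084 to 0.060, *Adcy2* -0.069 to 0.84, *Prkar1a* -0.086 to 0.0079, *Crem* -0.29 to 0.012 and the log2 ratio of *Adcy6* to *Adcy5* -0.031 to 0.26.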
